A study of Drosophila melanogaster with 10 samples.

Results

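The genes described here are 7 Turandot genes (TotA, TotB, TotC, TotF, TotM, TotX and TotZ) and 3 genes of the JAK-STAT pathway (upd3, Socs36E and vir-1), taken by name from a table of 17402 genes, so 10 genes of 17402. They were read in mRNA-seq of whole female larvae of the third instar of Drosophila melanogaster, in 10 libraries from 5 strains. No infection, heat or other challenge is named in the labels, so the values are levels in unchallenged larvae as far as the sources used here say. The control strain is labelled w. The other strains carry an allele of AGO2, the Argonaute protein that is loaded with small interfering RNAs, which is either 51B, a null allele, or V966M, a point mutation in the PIWI domain that removes slicing activity. By the strain labels, 51B and V966M are the homozygotes and 51B/+ and V966M/+ the heterozygotes. The AGO2 levels given below go against this for 51B. Each strain has 2 libraries, numbered replicate 3 and replicate 4. Each genotype is 1 strain, so the allele and the rest of the strain's genome cannot be told apart. The study calls the libraries of a strain biological replicates without saying whether they came from separate cultures, so the p-values measure only the spread between these libraries, which may be technical.

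Turandot genes encode small secreted peptides that the fat body, the insect counterpart of liver and adipose tissue, releases into the hemolymph after bacterial infection, heat, drying or wounding. In the best described route, blood cells release the cytokine Upd3, which binds the receptor Domeless on fat body cells and signals through the kinase Hopscotch to the transcription factor Stat92E. Stat92E then switches on TotA, vir-1 (named for its induction by virus) and Socs36E, whose product inhibits the same pathway, and p38 kinase and Imd signalling also feed into TotA.

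Total counts ran from 22337432 to 60886803 per library, and replicate 3 was the deeper library of every strain. Levels are given as CPM (counts of a gene per 1000000 counts of its library) with library sizes adjusted by TMM, a normalization of library composition, and 3 counts, the upper limit that a count of 0 allows, correspond to 0.0513 to 0.149 CPM over the libraries (counting error only). The libraries of each strain differed by more than counting noise (a chi-square of 96.8 to 182 for each degree of freedom), so none was treated as a second copy of another. AGO2 itself goes against the strain labels: it stood at 191 CPM ± 54.1 (SD, n = 2) in w, at 3.35 CPM ± 0.715 (SD, n = 2) in the libraries labelled 51B/+ and at 102 CPM ± 3.97 (SD, n = 2) in those labelled 51B. Sample titles repeat the allele name where the strain field adds the plus sign, and give it a single time where that field names the allele alone. By AGO2 level and title, the libraries labelled 51B/+ look like the null homozygote and those labelled 51B like the heterozygote. AGO2 had 236 and 163 CPM in the libraries labelled V966M and 249 and 194 in those labelled V966M/+ (replicate 3 first). Its level therefore cannot settle the labels of that pair. Groups and directions below follow the strain labels, so each strain is written as the libraries labelled with that name.

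TotA was by far the most abundant of the 7 Turandot genes, TotC was expressed at a moderate level, and the other 5 were scarce. Per kilobase of exon, a scale on which genes can be compared, TotA ran from 393 to 1030 CPM over the 10 libraries (median 632), which placed it at rank 165 of the 13402 tested genes with an exon length. TotC came next with 3.66 to 21.8 CPM per kilobase (median 9.70), at rank 4274, and TotB had 0.228 to 1.37 (median 0.667), at rank 9517. TotA held between 97.99% and 99.15% of all Turandot counts in every library. This dominance of 1 gene over its relatives held in each of the 5 strains.

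TotA, TotC, TotB and TotZ lie side by side in that order on the plus strand of chromosome 3R, within 7328 bases. TotA (FBgn0028396) spans 20871036 to 20871700 of 3R in dm6, TotC (FBgn0044812) 20872988 to 20873580, TotB (FBgn0038838) 20873938 to 20874522 and TotZ (FBgn0044809) 20877736 to 20878363. TotC and TotB are separated by 357 bases, the closest pair among the members, and yet TotC had 2062 counts over the 10 libraries against 131 for TotB, from exons of 530 and 526 bases. TotX (FBgn0044810) lies 26553 bases beyond TotZ, on the minus strand from 20904917 to 20905518. TotF (FBgn0044811, 2L, 19911815 to 19912377, minus strand) and TotM (FBgn0031701, 2L, 5329857 to 5330464, plus strand) lie elsewhere. Reads were counted over exons without regard to strand. Reads that match more than 1 of these related genes could be lost, so the low counts of the TotA neighbours are uncertain.

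TotA had 361 and 371 CPM in the w libraries (replicate 3 first here and below). The libraries labelled 51B had 451 and 574 CPM and those labelled 51B/+ had 596 and 544. The libraries labelled V966M had 262 and 302 CPM and those labelled V966M/+ had 280 and 228. All 4 libraries with a 51B label, from 2 strains, were therefore above both w libraries, and all 4 with a V966M label, also from 2 strains, were below both. The share of all genes that separate from w in this way was not counted, here or for the genes below. None of these 4 strains was called against w for TotA by edgeR. The strain means ordered as 51B/+ (570 CPM ± 36.9), 51B (512 ± 87.2), w (366 ± 6.60), V966M (282 ± 28.6) and V966M/+ (254 ± 37.1; SD, n = 2 each). The libraries of the top pair of strains in this order overlapped each other, as did those of the bottom pair.

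TotC, the neighbour of TotA, had 5.02 and 5.82 CPM in w, 3.20 and 9.34 in the libraries labelled 51B and 11.6 and 10.9 in those labelled 51B/+. It had 3.78 and 5.26 CPM in the libraries labelled V966M and 3.78 and 1.94 in those labelled V966M/+. Both libraries labelled 51B/+ were above all the others, and both labelled V966M/+ were below both w libraries, whereas the libraries labelled 51B lay on either side of w and those labelled V966M overlapped it. The strain means came in the same order as for TotA, from 11.2 CPM ± 0.504 (SD, n = 2) in the libraries labelled 51B/+ to 2.86 CPM ± 1.301 (SD, n = 2) in those labelled V966M/+. For every 100 counts of TotA there were 1.94 and 1.995 counts of TotC in the libraries labelled 51B/+, the highest of the 10, and 0.709 in replicate 3 of the libraries labelled 51B, the lowest.

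**Figure D1:**
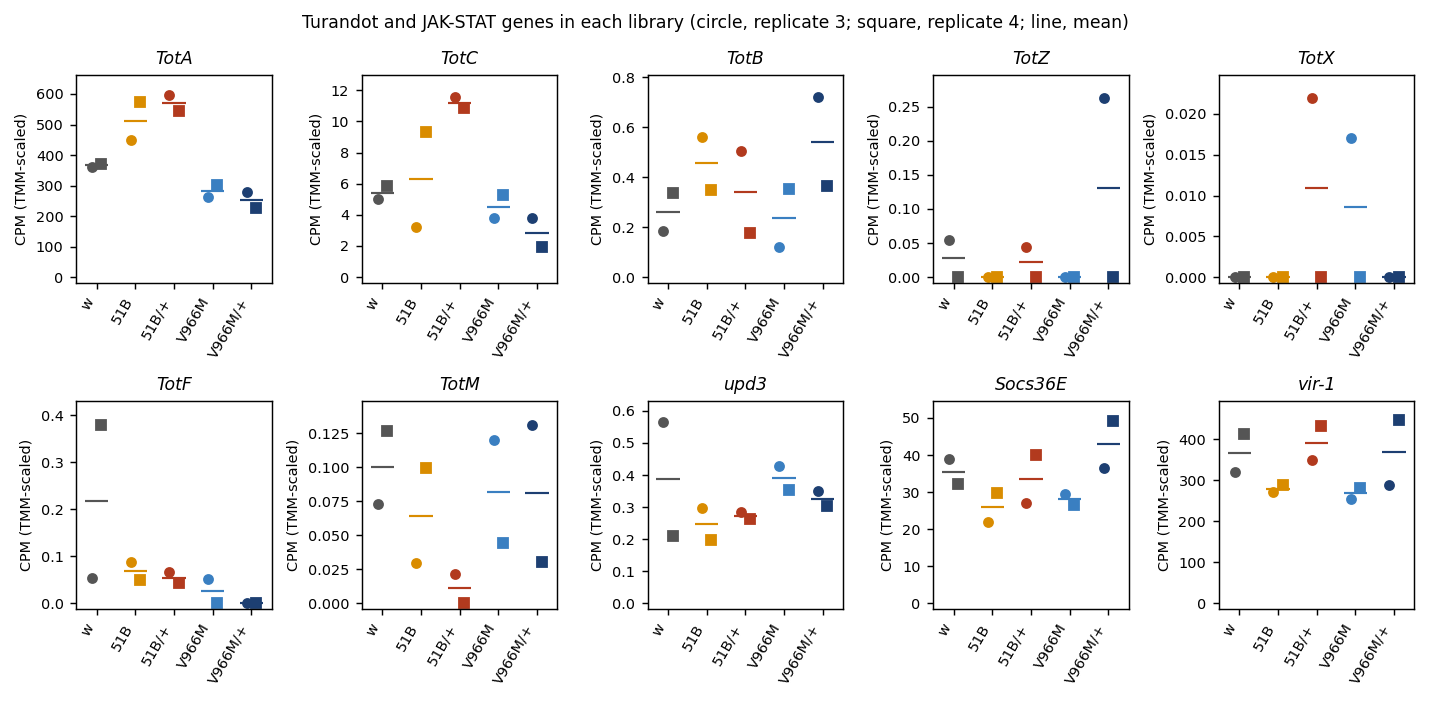
Level of each of the 10 genes in each library, in TMM-scaled CPM on a linear axis that differs between panels, with strains as labelled on the horizontal axis, circles for replicate 3, squares for replicate 4 and a line at the mean of the 2. TotA and TotC are highest in the libraries labelled 51B/+ (means of 570 and 11.2 CPM) and lowest in those labelled V966M/+ (254 and 2.86 CPM), while TotB, TotZ, TotX, TotF, TotM and upd3 stay under 1 CPM in every library.

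TotB was counted 4 to 33 times per library. Its level was 0.183 and 0.337 CPM in w and reached at most 0.721 CPM, in replicate 3 of the libraries labelled V966M/+, where the second library had 0.364. Libraries of a strain lay far apart, as with 0.504 and 0.175 CPM for the label 51B/+, and TotB was not called in any comparison.

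The remaining Turandot genes were at the limit of detection. TotZ was counted 12 times in replicate 3 of the libraries labelled V966M/+, 3 times in replicate 3 of w, 2 times in replicate 3 of those labelled 51B/+ and 0 times in the other 7 libraries. TotM was counted 0 to 7 times per library and TotX 2 times in all 10 libraries together. TotF was counted 3 and 9 times in w, 3 and 1 times each in the libraries labelled 51B and 51B/+, 3 and 0 times in those labelled V966M and 0 times in both libraries labelled V966M/+. TotF was not called between V966M/+ and w (edgeR adjusted p = 0.293), and no fold is given for these 4 genes. TotX is the only member under the minimum of 10 counts summed over the libraries, so 9 of the 10 members were tested. TotF and TotX each overlap a gene on the opposite strand (sick and Grik) without sharing exon bases with it.

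Upd3 RNA, which encodes the ligand, was scarce. The gene upd3 (FBgn0053542, X, 18277233 to 18284596, plus strand) was counted 4 to 31 times per library, or 0.0895 to 0.255 CPM per kilobase of exon. Its level was 0.566 and 0.211 CPM in w, 0.296 and 0.199 in the libraries labelled 51B, 0.285 and 0.263 in those labelled 51B/+. The label V966M had 0.428 and 0.354 CPM and the label V966M/+ had 0.350 and 0.303. The w libraries alone spanned nearly the whole range, and upd3 was not called in any comparison. Between the libraries labelled 51B/+ and V966M/+, where TotA differed most, the log2 fold change of upd3 was -0.25 with a 95% interval from -1.61 to 1.12 (edgeR adjusted p = 0.858).

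Socs36E, the feedback inhibitor (FBgn0041184, 2L, 18138675 to 18152417, minus strand), had 38.9 and 32.1 CPM in w, 22.1 and 29.8 in the libraries labelled 51B and 27.2 and 40.0 in those labelled 51B/+. It had 29.5 and 26.6 CPM in the libraries labelled V966M and 36.5 and 49.2 in those labelled V966M/+. The libraries labelled 51B or V966M were below both w libraries, and those labelled 51B/+ or V966M/+ overlapped w. The log2 fold changes against w were -0.46 (SE 0.25, edgeR adjusted p = 0.557) for the label 51B and -0.34 (edgeR adjusted p = 1) for the label V966M, and neither was called. The mean level was highest in the libraries labelled V966M/+ (42.9 CPM ± 8.99, SD, n = 2), where TotA was lowest. The difference between the libraries labelled V966M and V966M/+ was -0.61 on the log2 scale (SE 0.25, edgeR adjusted p = 0.226) and was not called.

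The virus-induced target vir-1 (FBgn0043841, 2L, 12403270 to 12423439, minus strand) was the second most abundant member, with 120 to 211 CPM per kilobase of exon (rank 520). It had 319 and 413 CPM in w, 270 and 289 in the libraries labelled 51B and 350 and 432 in those labelled 51B/+. It had 254 and 282 CPM in the libraries labelled V966M and 289 and 447 in those labelled V966M/+. As with Socs36E, the libraries labelled 51B or V966M were below both w libraries and those labelled 51B/+ or V966M/+ overlapped w. For vir-1, but not for Socs36E, the libraries numbered replicate 4 were above those numbered replicate 3 in all 5 strains. The log2 fold changes against w were -0.39 (edgeR adjusted p = 0.635), 0.09 (0.943), -0.45 (1) and 0.01 (1) for the labels 51B, 51B/+, V966M and V966M/+, none of them called. The 2 abundant Stat92E targets thus did not share an order of strains: vir-1 had its second highest mean in the libraries labelled V966M/+ (368 CPM ± 112, SD, n = 2), the strain in which TotA had its lowest.

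Each strain was compared with w to ask which genes move with each allele. No member was called at an adjusted p under 0.1 by edgeR in any of these 4 comparisons. In the libraries labelled 51B, 0 of 9 members were called against 0.738% of all 13551 genes tested, with 0 at an unadjusted p under 0.05, and in those labelled 51B/+, 0 of 9 against 1.79%, with 1 at an unadjusted p under 0.05. For the label V966M, 0 of 9 were called against 0.125% of all genes, with 0 at an unadjusted p under 0.05, and for V966M/+, 0 of 9 against 1.14%, with 2. Of all 13551 genes, 1467, 1584, 600 and 1517 were at an unadjusted p under 0.05 for the labels 51B, 51B/+, V966M and V966M/+. The nearest to a call with an abundant member was TotA, with a log2 fold change of 0.64 in the libraries labelled 51B/+ (SE 0.22, 95% interval 0.15 to 1.13, edgeR adjusted p = 0.291) and of -0.53 in those labelled V966M/+ (SE 0.22, edgeR adjusted p = 0.392). DESeq2 called 1 member, TotA, for the label 51B/+ (adjusted p = 0.0363), and the edgeR exact test called TotC there (log2 fold change 1.06, adjusted p = 0.00883), while both called 0 members for the other 3 labels. The fold changes of TotC against w were 0.19 (SE 0.47) for the label 51B, 1.05 (SE 0.47) for 51B/+, -0.27 (SE 0.47) for V966M and -0.91 (SE 0.48) for V966M/+ on the log2 scale. The value for 51B turned to -0.76 without replicate 4 of that strain, so 1 library set its sign.

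The libraries labelled 51B/+ and V966M/+ were compared directly, because a member higher than w in one strain and lower in the other is not thereby shown to differ between them. TotA rose by 1.17 on the log2 scale in the libraries labelled 51B/+ over those labelled V966M/+ (SE 0.22, 95% interval 0.67 to 1.66, edgeR adjusted p = 0.0339). TotC rose by 1.96 (SE 0.48, 95% interval 0.87 to 3.05, edgeR adjusted p = 0.0745). In both genes each library labelled 51B/+ was above each library labelled V966M/+, with TotA at 544 CPM or more against 280 or less and TotC at 10.9 or more against 3.78 or less. They were the 2 of 9 members called, both higher, where 6.07% of all genes were called and 4.52% were called higher. The median log2 fold change was -0.25 over the 9 members and -0.08 over the 6 that had more than 3 counts in every library, against 0.03 over all genes, so the increase did not extend to the members as a group.

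In the quasi-likelihood test of edgeR used here, the call rested on the spread estimated over all strains and on single libraries. The edgeR exact test, run on these 2 strains alone, called both genes (adjusted p = 0.00639 for TotA and 0.000239 for TotC). With only these 2 strains in the quasi-likelihood fit the fold changes were 1.17 and 1.96. The adjusted p of edgeR was then 0.129 for TotA and 0.123 for TotC. Without replicate 3 of the libraries labelled 51B/+ it was 0.168 and 0.244, and without replicate 4 of those labelled V966M/+ it was 0.215 and 0.365, with fold changes of 1.02 and 1.56 in the latter case. Scaling to library totals in place of TMM shifts every gene by -0.29 on the log2 scale in this comparison, and the ratio of mean TotA levels was then 1.85 in place of 2.25 and that of TotC 3.26 in place of 3.92.

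**Figure D2:**
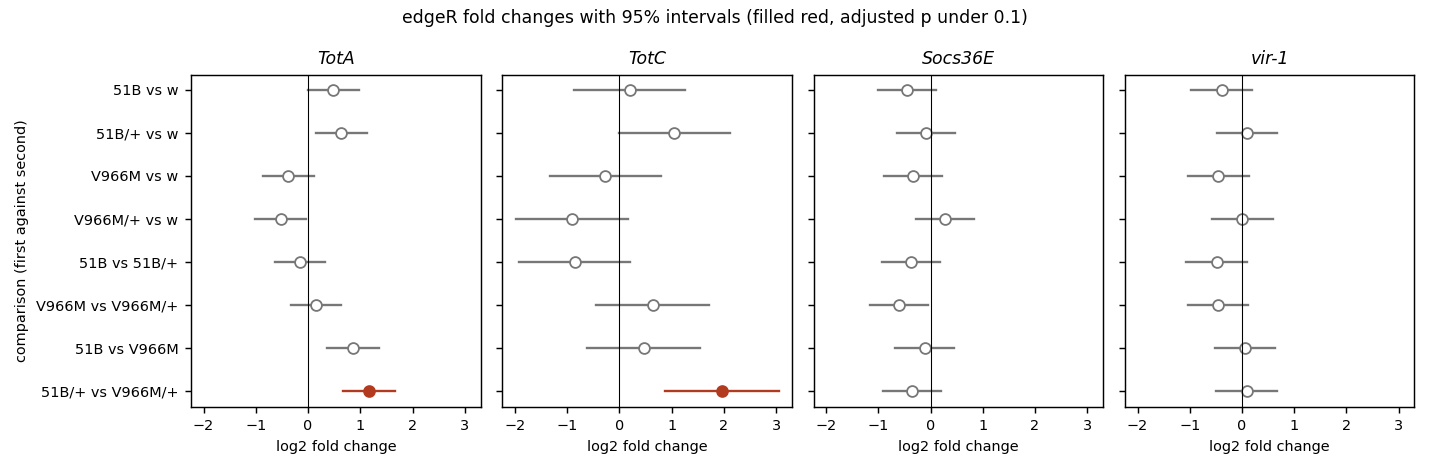
Log2 fold changes of TotA, TotC, Socs36E and vir-1 in the 8 comparisons between strains, first label against second, with 95% intervals from edgeR and filled red points for an adjusted p under 0.1. The only filled points are those of TotA (1.17) and TotC (1.96) in the libraries labelled 51B/+ against V966M/+, and all intervals of vir-1 include 0.

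The other comparisons between strains gave no call among the members. Between the libraries labelled 51B and V966M, 0 of 9 members were called against 0.118% of all genes, with 1 at an unadjusted p under 0.05: TotA differed by 0.86 on the log2 scale (SE 0.22, 95% interval 0.37 to 1.35, edgeR adjusted p = 0.513). DESeq2 called it, with an adjusted p of 0.00556 for a log2 fold change of 0.88. Between 51B and 51B/+, 0 of 9 were called against 0.0812% of all genes, with 0 at an unadjusted p under 0.05, and TotA differed by -0.15 (95% interval -0.64 to 0.33). Between V966M and V966M/+, 0 of 9 were called although 6.7% of all genes were, with 1 at an unadjusted p under 0.05, and TotA differed by 0.15 (edgeR adjusted p = 0.760). A test of whether the labelled homozygote and heterozygote differ by the same amount in both alleles called 0 of 9 members against 0.0886% of all genes, with 0 at an unadjusted p under 0.05, and the lowest adjusted p of edgeR was 0.595. In the order given here, 747, 807, 2572 and 1141 of all 13551 genes were at an unadjusted p under 0.05.

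Summed fat body markers moved with TotA between the libraries labelled 51B/+ and V966M/+. The fat body markers (Lsp1alpha, Lsp1beta, Lsp2, Fbp1, Fbp2, apolpp and FASN1, of which 7 of 7 were above 0 in every library) summed to 70057 to 74290 CPM in the libraries labelled 51B/+ and to 47237 to 53002 CPM in those labelled V966M/+, against 55402 to 56117 CPM in w. They summed to 73389 to 84242 CPM in the libraries labelled 51B, above w as TotA was, and to 67009 to 69797 CPM in those labelled V966M, which were above w where TotA was below. For every 1000 CPM of fat body markers there were 6.56 CPM ± 0.178 of TotA in w, 6.48 ± 0.476 in the libraries labelled 51B, 7.92 ± 0.840 in those labelled 51B/+, 4.12 ± 0.300 in those labelled V966M and 5.05 ± 0.329 in those labelled V966M/+ (SD, n = 2 each). On this scale the ratio of the libraries labelled 51B/+ to those labelled V966M/+ was 1.57 for TotA and 2.77 for TotC, and the libraries labelled 51B overlapped w. The markers did not all move alike: Fbp1, a receptor for storage proteins, had 15793 and 17733 CPM in the libraries labelled 51B/+ and 18675 and 25644 CPM in those labelled V966M/+. Without Fbp1, a choice made after seeing the data, there were 10.99 and 9.62 CPM of TotA for every 1000 CPM of the other 6 markers in the libraries labelled 51B/+ and 8.16 and 10.5 in those labelled V966M/+, which overlap. The ratio was then 1.102 for TotA and 2.03 for TotC. In whole larvae, fewer fat body cells and less RNA per cell cannot be told apart, and the part of the marker levels in the TotA difference was not tested.

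The glue and cuticle genes that change as larvae age within the third instar (Sgs3, Sgs4, Lcp1 and Lcp2, 4 of 4 above 0) summed to 15954 to 16593 CPM in the libraries labelled 51B/+ and to 8025 to 9633 CPM in those labelled V966M/+. They summed to 9551 to 10669 CPM in w, to 16145 to 16417 CPM in the libraries labelled 51B and to 11479 to 12750 CPM in those labelled V966M, which were above w where TotA was below. The genes split there: Lcp1 (4174 and 4349 CPM against 3493 and 3742 in w) and Lcp2 (4125 and 4415 against 2765 and 2114) were higher. The glue gene Sgs3 had 3516 and 2160 CPM against 3477 and 2882 in w, and Sgs4 had 935 and 556 against 935 and 812. The part of these 4 genes in the result was not tested. The 8 hemocyte markers, blood cells being the described source of Upd3, summed to 579 to 782 CPM in the libraries labelled 51B/+ and 549 to 595 CPM in those labelled V966M/+, ranges that overlap, and to 408 to 534 CPM in w. All 8 were above 0 in every library.

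**Figure D3:**
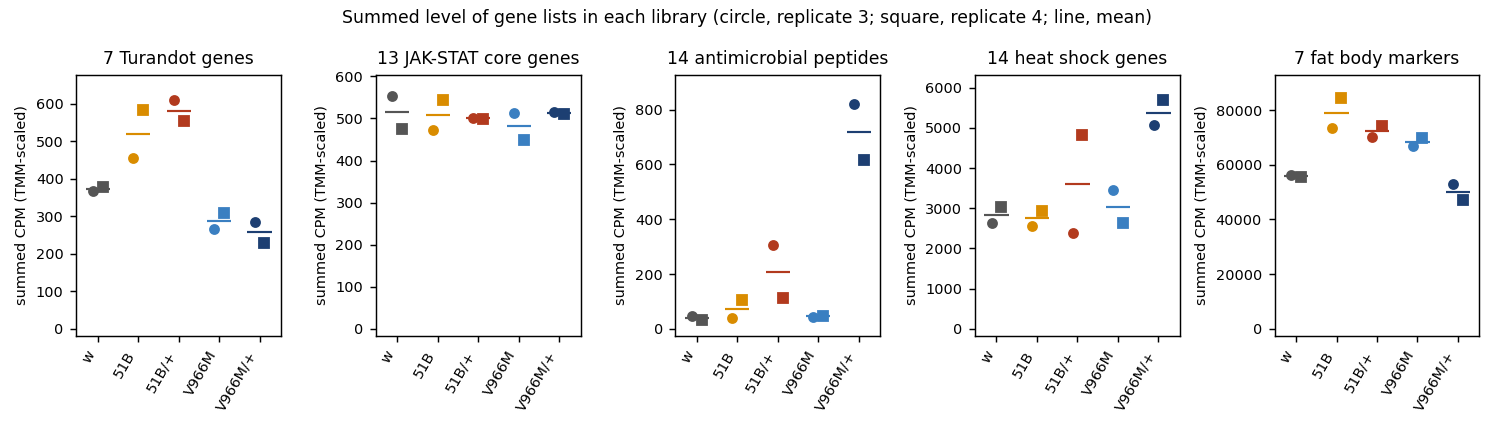
Summed TMM-scaled CPM of 5 gene lists in each library, by strain label, with circles for replicate 3, squares for replicate 4 and a line at the mean. Turandot genes and fat body markers are both high in the libraries labelled 51B/+ and low in those labelled V966M/+, and the 13 JAK-STAT core genes stay between 449 and 554 CPM in all 10 libraries. The antimicrobial peptides are highest (616 to 819 CPM) in the libraries labelled V966M/+, where the Turandot genes are at 230 to 285 CPM. In those labelled V966M the Turandot genes overlap this range (266 to 308 CPM), while the peptides are at 45.1 to 46.2 CPM. The libraries labelled 51B/+, with Turandot genes at 555 to 608 CPM, have peptides at 114 to 305 CPM.

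Of 13 core and regulatory genes of the pathway, among them dome (the receptor), hop (the kinase), Stat92E and the ligands upd1 and upd2, 0 were called in any of the 4 comparisons with w, between V966M and V966M/+ or between 51B/+ and V966M/+, where their median log2 fold change was 0.01 against 0.03 for all genes. With 0.125% to 6.7% of all genes called in these comparisons, 0 of 13 is near the background. At an unadjusted p under 0.05 there was 1 of 13 for the label 51B against w (1467 of all 13551 genes). The other comparisons with w had 0. There were 3 between V966M and V966M/+ (2572 of all genes) and 2 between 51B/+ and V966M/+ (2573 of all genes). The last 2, named after their values were seen, were et, an inhibitor of the pathway, at 21.2 CPM ± 3.02 for the label 51B/+ against 11.2 ± 1.88 for V966M/+ (SD, n = 2 each, edgeR adjusted p = 0.112), and ken, a repressor of Stat92E targets, at 19.8 ± 0.279 against 13.7 ± 0.111 (SD, n = 2 each, edgeR adjusted p = 0.107). Stat92E ran from 145 to 209 CPM over the 10 libraries and dome from 38.7 to 60.04. Of 6 other genes known to respond to the pathway, 1 was called: Tep4, a thioester protein of the hemolymph. Tep4 was higher by 0.96 for the label 51B/+ than for V966M/+ (edgeR adjusted p = 0.0635), where 612 of all 13551 genes were called higher. Tep4 was also higher by 0.91 in the libraries labelled V966M than in those labelled V966M/+ (edgeR adjusted p = 0.0708), a comparison in which TotA and TotC were not called. It had 162 and 115.5 CPM in the libraries labelled V966M/+, its 2 lowest values.

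Several antimicrobial peptide genes went the other way from TotA between the libraries labelled 51B/+ and V966M/+. Of 14 antimicrobial peptide genes, secreted by the fat body as TotA is, 5 were called lower for the label 51B/+ than for V966M/+. In the same comparison 0 of the 14 were called higher, while 211 of all 13551 genes were called lower and 612 higher. The median log2 fold change of the 14 was -1.55 against 0.03 for all genes, with CecA2 at -4.88 (edgeR adjusted p = 0.00846), CecC at -5.97 (0.0172) and Def at -4.91 (0.0190). Of the 9 peptide genes not called, 3 had higher means for the label 51B/+ than for V966M/+, as TotA did. These were AttA (5.45 against 2.22 CPM), AttC (17.2 against 8.48) and Dro (14.5 against 5.60), named after their values were seen. For Dro the libraries of the 2 strains overlapped, at 22.0 and 6.96 CPM against 3.32 and 7.88. CecC had 110 and 117 CPM in the libraries labelled V966M/+ and 1.205 and 2.54 in those labelled 51B/+. Against w, 4 of the 14 rose in the libraries labelled V966M/+ (median 3.43), where 57 of all 13551 genes were called higher. CecA2 was at 5.42 (edgeR adjusted p = 0.00748), Def at 4.996 (0.0222) and CecC at 5.43 (0.0244), while TotA was not called there. In the libraries labelled 51B/+ 1 rose against w, AttC, by 2.78 (edgeR adjusted p = 0.0484), where 112 of all 13551 genes were called higher. Of the 14, 10 were called lower in the libraries labelled V966M than in those labelled V966M/+, where 140 of all 13551 genes were. TotA was not called between those 2 strains.

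Among the other stress and immune lists, 5 of 47 genes tested (10.6%) were called between the libraries labelled 51B/+ and V966M/+, where 6.07% of all genes were. Of 10 Imd pathway genes, 1 was called between 51B/+ and V966M/+: PGRP-LC, a receptor for bacterial peptidoglycan, was lower in the libraries labelled 51B/+ (log2 fold change -0.98, edgeR adjusted p = 0.0401). Of 8 JNK pathway genes egr, the TNF ligand, was higher in the libraries labelled 51B/+ by 0.65 (edgeR adjusted p = 0.0786), and of 7 p38 pathway genes 0 were called. Of 13 heat shock genes tested 2 were called higher, stv by 0.87 (edgeR adjusted p = 0.0535) and Hsp70Bc by 3.85 (0.0646). Hsp70Bc had 0.810 and 3.54 CPM against 0.218 and 0.0606. Of the 13, 9 had positive and 4 negative log2 fold changes. The sum of the heat shock list was nevertheless lower in the libraries labelled 51B/+ (2393 to 4822 CPM) than in those labelled V966M/+ (5067 to 5692 CPM). Of 9 antiviral and STING pathway genes tested, pst was lower (log2 fold change -1.08, edgeR adjusted p = 0.0627). Srg2 and Srg3, regulated by STING, were not called here but were lower than w in both strains, by log2 fold changes of -3.84 (edgeR adjusted p = 0.00647) and -5.04 (0.00539) in the libraries labelled 51B/+ and -3.57 (0.00933) and -4.81 (0.00890) in those labelled V966M/+.

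**Figure D4:**
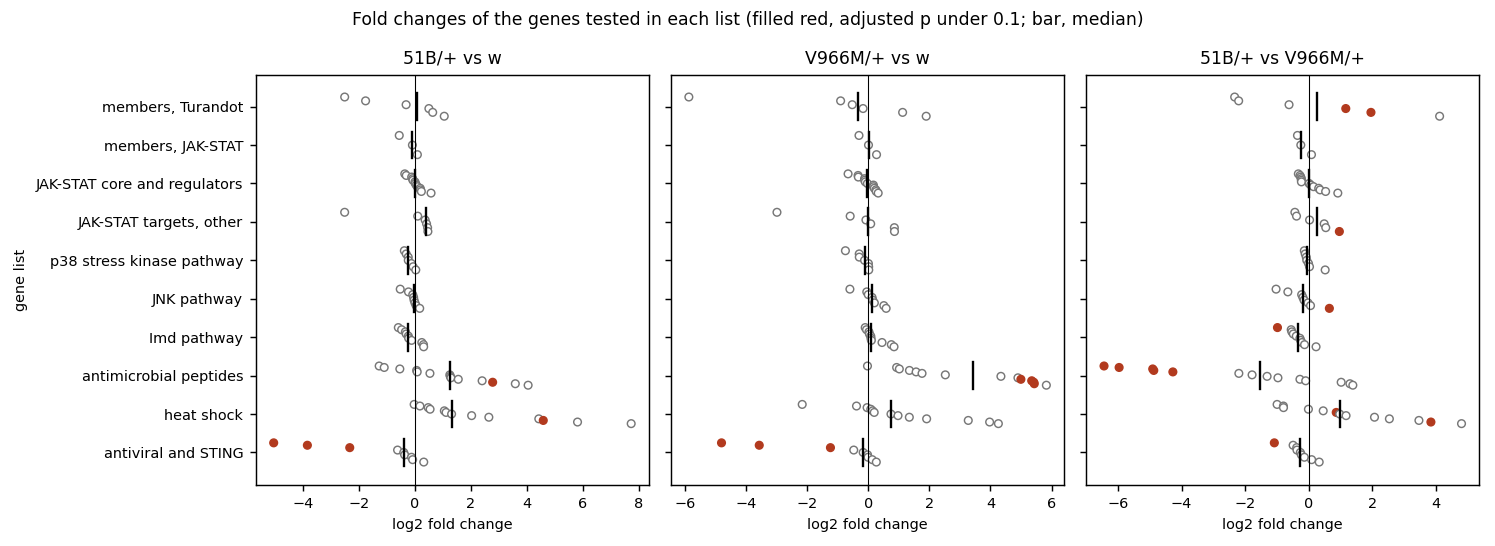
Log2 fold changes of every tested gene of 10 lists for the labels 51B/+ against w, V966M/+ against w and 51B/+ against V966M/+, with filled red points for an edgeR adjusted p under 0.1 and a black bar at the median of each list. TotA and TotC are the only filled Turandot points (right panel, 1.17 and 1.96), no JAK-STAT core gene is filled in any panel, and the extreme Turandot and heat shock values belong to genes with few or 0 counts in a strain, whose fitted folds depend on the prior count.

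The genes whose levels followed the summed Turandot genes most closely over the 10 libraries were Cyp4p2 (Pearson r = 0.960), crc (0.947), Cyp4e2 (0.936), elB (0.918) and CG34215 (0.906). Of the 8001 genes ranked, whose mean reached 5 CPM, 6 exceeded 0.9 and 13 lay below -0.9. Cyp4p2 and Cyp4e2 encode cytochrome P450 enzymes, crc encodes the Drosophila ATF4 transcription factor and elB a zinc finger protein. Cyp4p2 had mean levels of 4.31 CPM in w, 12.9 in the libraries labelled 51B, 13.3 in those labelled 51B/+, 2.76 for the label V966M and 1.37 for the label V966M/+. These correlations are descriptions over 10 libraries that come in 5 pairs and share their strains. The member upd3, under 5 CPM, was not ranked.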

How the data were processed

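The authors removed polyadenylate tails and adapters from 50 base single-end reads with cutadapt 1.10, aligned them to dm6 with HISAT2 2.0.4 and counted them per FlyBase 6.11 gene with featureCounts 1.5.0-p3. The values deposited by the authors are raw counts per gene and library, and all columns of the table belong to a labelled sample. Gene positions and exon lengths come from Ensembl, which held 17210 of the 17402 identifiers (98.9%).

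Of the genes, 13551 reached a sum of 10 counts over the libraries. They entered the quasi-likelihood test in edgeR 4.0.16 and R 4.3.3 (TMM, robust, strain as the only factor, all libraries in 1 fit), with Benjamini-Hochberg adjustment over all of them and calls at an adjusted p under 0.1. The script was tested on simulated counts. The SE comes from the fold change and its F statistic. Also tried were the edgeR exact test on the 2 strains compared, DESeq2 1.42.0, RLE, all genes without a count filter and filterByExpr. Further alternatives were a threshold of 0.05, a quasi-likelihood fit of the 2 strains compared, the replicate number as a block, and leaving out each library. The fit of all strains also serves where 1 library is left in a strain, which is then assumed to vary like the others.

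The members and the gene lists were chosen with earlier results of these data known. The text names all members, AGO2, at most 3 called genes of each list per comparison (the smallest adjusted p) and the 5 genes most correlated with the summed Turandot genes, on log2(CPM + 0.5). Outside that rule it gives et, ken, AttA, AttC, Dro and Fbp1, which were not called in the comparison given. The pathway genes dome, hop, Stat92E, upd1 and upd2, the summed markers and the genes overlapping TotF and TotX are named as well. Markers of lamellocytes summed to 18.7 to 41.0 CPM and those of crystal cells to 25.4 to 303 CPM over the libraries. Midgut markers summed to 681 to 1883 CPM in the libraries labelled 51B and 51B/+, to 1965 to 2557 CPM in those labelled V966M and V966M/+ and to 3474 to 3751 CPM in w.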

Additional observations from a re-analysis of the deposited data

Results flagged for a closer look

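The changes of TotA against w differed between the libraries labelled 51B/+ and those labelled V966M/+, by 1.17 on the log2 scale in the direct test (edgeR adjusted p = 0.0339), with 2 of 2 libraries of the first strain above w and 2 of 2 of the second below it. The changes of TotC against w differed between the same strains by 1.96 on the log2 scale (edgeR adjusted p = 0.0745), again with 2 of 2 libraries above w and 2 of 2 below. The share of all genes with such a split was not counted, and edgeR called neither gene against w in either strain. With 2 libraries per strain, no strain was large enough for a test of single libraries that stand apart.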

How the results depend on the processing

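The calls of TotA and TotC between the libraries labelled 51B/+ and V966M/+ held with DESeq2, the edgeR exact test, RLE, filterByExpr, no count filter and the replicate block. The number of members called there was 1 at an adjusted p under 0.05 (TotA) and 0 in the quasi-likelihood fit of these 2 strains alone. When single libraries were left out, the log2 fold changes were 1.02 to 1.31 for TotA and 1.56 to 2.51 for TotC. DESeq2 called 1 member between 51B and V966M and 1 between 51B/+ and w, and the exact test 1 between 51B/+ and w. In the other comparisons the count stayed at 0 under every alternative run. For the interaction, the fit of 2 strains alone was not run, since it involves 4 strains. The sign turned, for changes that were never called, when single libraries were left out. The ranges were -0.34 to 0.0094 (TotA, 51B against 51B/+), -0.49 to 1.06 and -0.76 to 0.79 (TotC, 51B against V966M and w), -0.35 to 0.087 and -0.41 to 0.17 (Socs36E, 51B against V966M and 51B/+ against w), and -0.012 to 0.14, -0.21 to 0.43, -0.095 to 0.29 and -0.33 to 0.29 (vir-1, 51B against V966M, 51B/+ against V966M/+, 51B/+ against w and V966M/+ against w).

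It also turned for vir-1 in V966M/+ against w, at -0.0080 with the replicate number as a block. Same-numbered libraries share only a number: the deviations of the pairs from their strain means correlated with r from 0.004 to 0.59 across genes, and with 2 pairs no shared origin can be read from that. The block changed no call of a member (TotA 1.17, adjusted p = 0.0232, and TotC 1.93, 0.0865). Counts over all genes moved far more than those of the members: between 51B/+ and V966M/+ 823 genes were called, 1440 with DESeq2, 1557 with the block, 297 at an adjusted p under 0.05, 62 with the 2 strains alone and 113 to 1392 when single libraries were left out. For 51B against w the 100 calls became 582, 358, 49, 685 and 12 to 35, and 931 with the exact test. For 51B/+ against w the 242 became 565, 476, 161, 136 and 86 to 850, and 510 with the exact test. Scaling to library totals shifted the fold changes of all genes by -0.37 to 0.24 on the log2 scale, depending on the comparison. Adding that shift, an alternative chosen after seeing the data, turned the sign of 4 of 32 fold changes of TotA, TotC, Socs36E and vir-1, none of them called: vir-1 to -0.20 between 51B/+ and V966M/+ and to -0.016 between 51B and V966M, TotC to -0.013 in 51B against w, and TotA to -0.22 between V966M and V966M/+. Low counts limit TotB, TotF, TotM, TotX, TotZ and upd3, of which TotX was not tested.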
